A study of Mus musculus with 4 samples.

Results

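Cholesterol synthesis and its regulation was followed through 28 genes: 19 enzyme genes of the pathway, 5 genes of the sterol-sensing system and 4 genes of sterol transport and storage. The genes were chosen by name from what they are known to do, with earlier results of these data known. All 28 were found among the 19040 genes that the frontal cortex and midbrain tables share. The pathway joins acetyl-CoA units into mevalonate, builds squalene from them, closes squalene into lanosterol and trims lanosterol to cholesterol. Its genes are driven by the SREBP transcription factors, which SCAP carries out of the endoplasmic reticulum when sterol is low and which the INSIG proteins hold back when sterol is plentiful. The brain makes its own cholesterol behind the blood-brain barrier, and in the adult brain astrocytes are known as a main source.

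The data were single-cell RNA counts of 2 brain regions, frontal cortex and midbrain, from mice of 6 to 9 months, dissociated by a protocol aimed at glia and vascular cells. The 4 groups were transgenic midbrain, wildtype midbrain, transgenic frontal cortex and wildtype frontal cortex, with 1 library each. The transgenic mice carried Hua-Syn(A53T), a human alpha-synuclein with the A53T change, and the wildtype mice were littermates on C57BL/6. The promoter that drives the transgene was not given in the sources used here. The design text gives 3 mice per group, which the cell tables do not tell apart, both regions came from the same mice, and the labels' mouse number is 3 in the frontal cortex samples but 0 in the midbrain samples. The labels therefore describe 2 sets of mice, and p-values over libraries do not measure the spread between animals.

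The libraries held 3775 to 7635 cells and 30712684 to 56588233 UMIs (counted RNA molecules). Levels are given in CPM, the UMIs of a gene scaled to the same total for the summed cells of every type and library. These UMIs come from transcript ends, and levels of different genes are not compared. Astrocytes (deposited label AC) numbered 1512 in transgenic and 2644 in wildtype midbrain, and 868 in transgenic and 1067 in wildtype frontal cortex, with median UMIs per cell of 6320.0 to 7983. All 12 astrocyte markers were highest in AC among the 5 types compared in both regions, and so were the markers of microglia (MG, 10 of 10), endothelial cells (EC, 10 of 10), pericytes (PC, 7 of 7) and smooth muscle cells (SMC, 6 of 6). RNA of other types was present in AC at different levels by library. The summed microglial markers were at 283 and 256 CPM in transgenic and wildtype midbrain AC and at 559 and 1099 CPM in transgenic and wildtype frontal cortex AC, with all 10 detected. The summed choroid plexus and ependymal markers, nearly all Ttr, were at 1931 and 3503 CPM in midbrain AC and at 17.3 and 10.2 CPM in frontal cortex AC. Between 3 and 15 cell barcodes were shared by any pair of libraries.

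Astrocytes carried higher levels of nearly the whole pathway than each of the other 4 types compared. For gene levels below, elsewhere and the other types mean these 4, MG, EC, PC and SMC, and not the remaining deposited labels. Of the 28 genes, 24 were higher and 2 lower in AC than in MG, where 36.2% of all 14636 genes tested were higher and 28.2% lower. Against EC, 23 genes were higher and 2 lower, with 32.9% and 29.5% of all genes. Against PC, 22 were higher and 2 lower, with 21.7% and 28.1% of all genes. Against SMC, 24 were higher and 1 lower, with 35.3% and 23.0% of all genes. The median log2 ratio of the 28 genes was 2.70 against MG, 2.47 against EC, 2.05 against PC and 2.37 against SMC, where the median of all genes was 0.14, 0.05, -0.14 and 0.22. In all 4 comparisons 19 of the 28 genes were higher in AC, among them 15 of the 19 enzyme genes, as were 13.6% of all genes tested, and 0 were lower in all 4, as were 6.75% of all genes. A gene was called at an adjusted p under 0.05 in edgeR's quasi-likelihood test (Benjamini-Hochberg over all genes, 4 libraries per type, library as a block) and a log2 ratio of at least 0.58, which is 1.5 times. The types were named by the authors from clusters of these same cells, which the p-values do not take into account. Below, some genes are said not to overlap between AC and other types or between regions. The share of all genes for which this holds is not given, so it describes single genes only. Under TMM scaling the calls over all genes against PC turned from 3174 higher and 4114 lower to 4115 higher and 2997 lower, and the median of all genes there was 0.15.

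**Figure D1:**
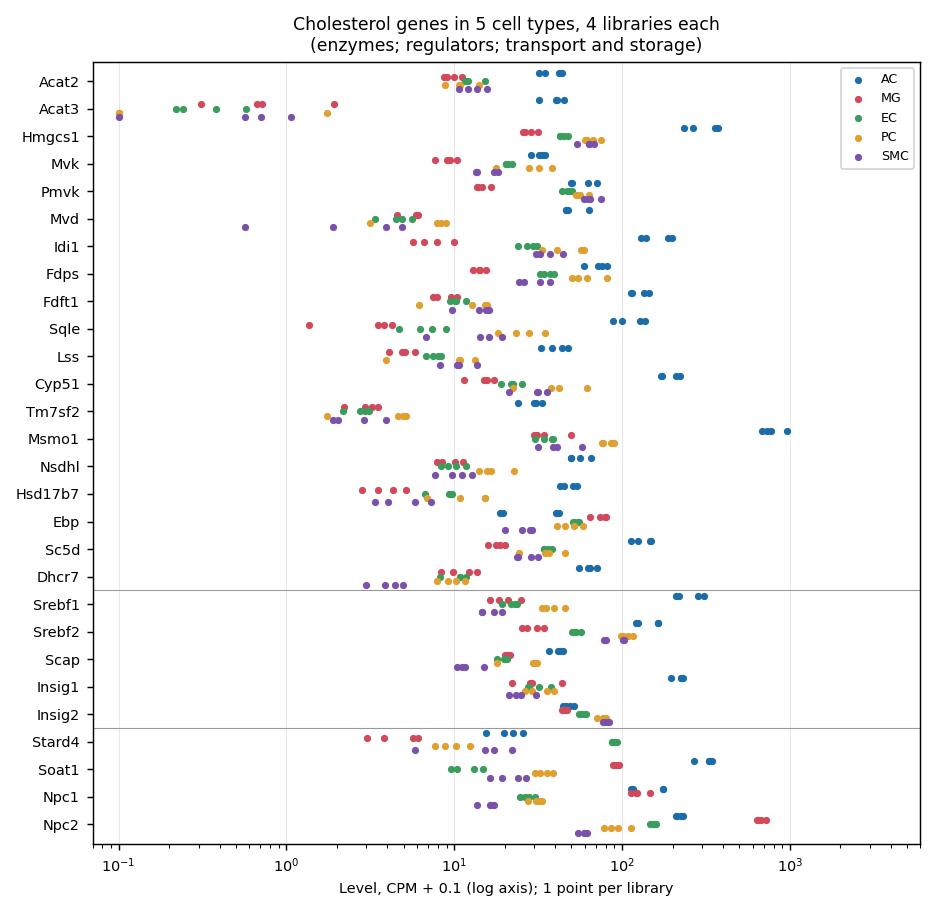
Levels of the 28 genes in AC, MG, EC, PC and SMC as CPM plus 0.1 on a log axis, 1 point per library, with enzymes, regulators and transport genes set apart by lines. The AC points lie right of the other types for most enzymes, while Mvk, Pmvk, Ebp, Insig2, Stard4 and Npc2 have a point of another type furthest right.

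The first steps make mevalonate from acetyl-CoA. Hmgcs1, HMG-CoA synthase (chromosome 13, 119690379 to 119708260, plus strand, GRCm38), was at 265 and 236 CPM in transgenic and wildtype midbrain AC and at 375 and 359 CPM in transgenic and wildtype frontal cortex AC. The other 4 types held 25.6 to 74.98 CPM of Hmgcs1 over their 16 sums, all below the lowest AC library. Its log2 ratios were 3.46 ± 0.14 against MG, 2.79 ± 0.13 against EC, 2.23 ± 0.15 against PC and 2.30 ± 0.13 against SMC (fit SE), with adjusted p-values of 4.6e-14 to 1.4e-10. Acat2, the cytosolic thiolase that joins acetyl-CoA units, was at 41.9 and 34.8 CPM in transgenic and wildtype midbrain AC and at 32.1 and 43.9 CPM in transgenic and wildtype frontal cortex AC, against 8.65 to 15.6 CPM in the other types. The ranges did not overlap, and its log2 ratios were 1.52 to 1.99 over the 4 comparisons.

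Acat3, a neighbouring copy of Acat2 on chromosome 17 (12923813 to 12940600, minus strand), was nearly limited to AC among the 5 types compared. It was at 40.8 and 40.5 CPM in transgenic and wildtype midbrain AC and at 31.9 and 45.0 CPM in transgenic and wildtype frontal cortex AC. It reached at most 1.83 CPM in MG, EC, PC or SMC, with 1741 UMIs in AC, 27 in MG, 15 in EC, 2 in PC and 7 in SMC over the 4 libraries. The log2 ratio was 5.77 ± 0.29 against MG, 7.07 ± 0.32 against EC and 6.01 ± 0.40 against SMC, and the ratio to PC rests on 2 UMIs and is not given. In 11 of 16 library and type pairs the Acat3 level, as a share of its AC level, was at or below the median share of the 12 astrocyte markers, and no other of the 28 genes was at or below it in any pair. That median share was 0.91% to 3.92% in MG, the highest in the wildtype midbrain library. The 2 gene copies are nearly alike in sequence, so how reads were split between Acat2 and Acat3 is uncertain.

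The 250 bases before the RefSeq start (GRCm38.p6) of 2 enzyme genes are shown, Hmgcs1 because it was high in AC throughout and Ebp because it was the enzyme gene that went the other way. Capitals mark matches to CCAAT, the letters bound by NF-Y, and to TCACNCCAC, 1 spelling of the sterol regulatory element bound by SREBP, read on both strands. Only exact matches were counted, so an element spelled otherwise would be missed. The windows are at chr13:119690101-119690350 on the plus strand for Hmgcs1 and chrX:8193513-8193762 on the minus strand for Ebp.
Hmgcs1: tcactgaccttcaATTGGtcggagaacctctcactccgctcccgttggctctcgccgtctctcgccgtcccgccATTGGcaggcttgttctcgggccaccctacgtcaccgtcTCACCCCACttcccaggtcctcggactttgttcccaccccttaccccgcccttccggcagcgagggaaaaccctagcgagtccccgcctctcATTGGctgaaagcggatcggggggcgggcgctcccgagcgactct
Ebp: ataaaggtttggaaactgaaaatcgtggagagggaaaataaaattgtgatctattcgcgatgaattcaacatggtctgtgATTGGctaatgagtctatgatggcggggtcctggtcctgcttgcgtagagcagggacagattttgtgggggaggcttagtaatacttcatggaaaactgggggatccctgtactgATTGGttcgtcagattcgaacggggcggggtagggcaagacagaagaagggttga
The Hmgcs1 window holds 3 CCAAT matches and 1 TCACNCCAC match that begins 137 bases before the start. The Ebp window holds 2 CCAAT matches and no TCACNCCAC match. Of the 22 genes with a RefSeq window, 20 held CCAAT on either strand (90.9%), against 37.5% of 27025 genes. A gene with several starts was counted if any of them had a match, and Dhcr7, Insig2, Pmvk and Srebf1 also had starts without one. The 27025 genes were not limited to the 19040 that both regions share. An exact TCACNCCAC match was found in 1 of the 22 (4.55%), Hmgcs1, against 1.225% of all genes, which does not show that the others lack a sterol element. The 2 motifs share no overlapping match in the windows shown, and a match is a description of letters and not of binding.

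The mevalonate kinase genes were called in fewer comparisons than the genes before them. Mvk, mevalonate kinase, was at 31.8 and 34.8 CPM in transgenic and wildtype midbrain AC and at 28.5 and 33.1 CPM in transgenic and wildtype frontal cortex AC. It was higher in AC than in MG (log2 ratio 1.81 ± 0.14), SMC (1.02 ± 0.16) and EC (0.62 ± 0.13), and PC held 17.5 to 37.9 CPM, a range that overlaps that of AC (log2 ratio 0.20 ± 0.17, adjusted p = 0.34). The call against EC was lost without the wildtype midbrain library (0.56). Pmvk, the next kinase, was at 49.7 to 70.5 CPM in AC and was called against MG alone (2.0 ± 0.12), with log2 ratios of 0.29 against EC, 0.03 against PC and -0.16 against SMC. Mvd, the decarboxylase that follows, was at 46.1 and 46.1 CPM in transgenic and wildtype midbrain AC and at 47.7 and 63.3 CPM in transgenic and wildtype frontal cortex AC. No other type held more than 8.90 CPM of Mvd, and its log2 ratios were 2.80 to 4.15.

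Idi1, the isomerase that yields the activated isoprene units, was at 138 and 129.6 CPM in transgenic and wildtype midbrain AC and at 189 and 198 CPM in transgenic and wildtype frontal cortex AC. MG held 5.55 to 9.92 CPM and PC 33.1 to 59.1 CPM of Idi1, and its log2 ratios ran from 1.82 ± 0.21 against PC to 4.48 ± 0.21 against MG. Fdps, farnesyl diphosphate synthase, was at 72.0 and 59.5 CPM in transgenic and wildtype midbrain AC and at 81.6 and 75.9 CPM in transgenic and wildtype frontal cortex AC. It was higher in AC than in MG (2.35), SMC (1.23) and EC (1.01), and PC held 50.0 to 81.3 CPM, which overlaps AC (0.24 ± 0.15, adjusted p = 0.18). Fdps overlaps Gm43738 on the same strand in the annotation, so its reads may be divided between both.

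The next enzymes make squalene, oxidise it and close it into a ring. Fdft1, squalene synthase, was at 113 and 114 CPM in transgenic and wildtype midbrain AC and at 145 and 135 CPM in transgenic and wildtype frontal cortex AC, against 6.07 to 15.97 CPM in the other types. All AC values stood above all others, and its log2 ratios were 3.13 to 3.86. Sqle, squalene epoxidase (chromosome 15, 59315077 to 59331192, plus strand), was at 99.5 and 88.4 CPM in transgenic and wildtype midbrain AC and at 137 and 129 CPM in transgenic and wildtype frontal cortex AC. MG held 1.27 to 4.18 CPM and PC 18.1 to 34.9 CPM of Sqle, so the log2 ratio was 5.27 ± 0.28 against MG and 2.17 ± 0.30 against PC (adjusted p = 3.2e-11 and 7.7e-06). Lss, lanosterol synthase, was at 38.4 and 32.7 CPM in transgenic and wildtype midbrain AC and at 43.8 and 47.4 CPM in transgenic and wildtype frontal cortex AC, with 13.6 CPM the highest value elsewhere and log2 ratios of 1.94 to 3.06.

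**Figure D2:**
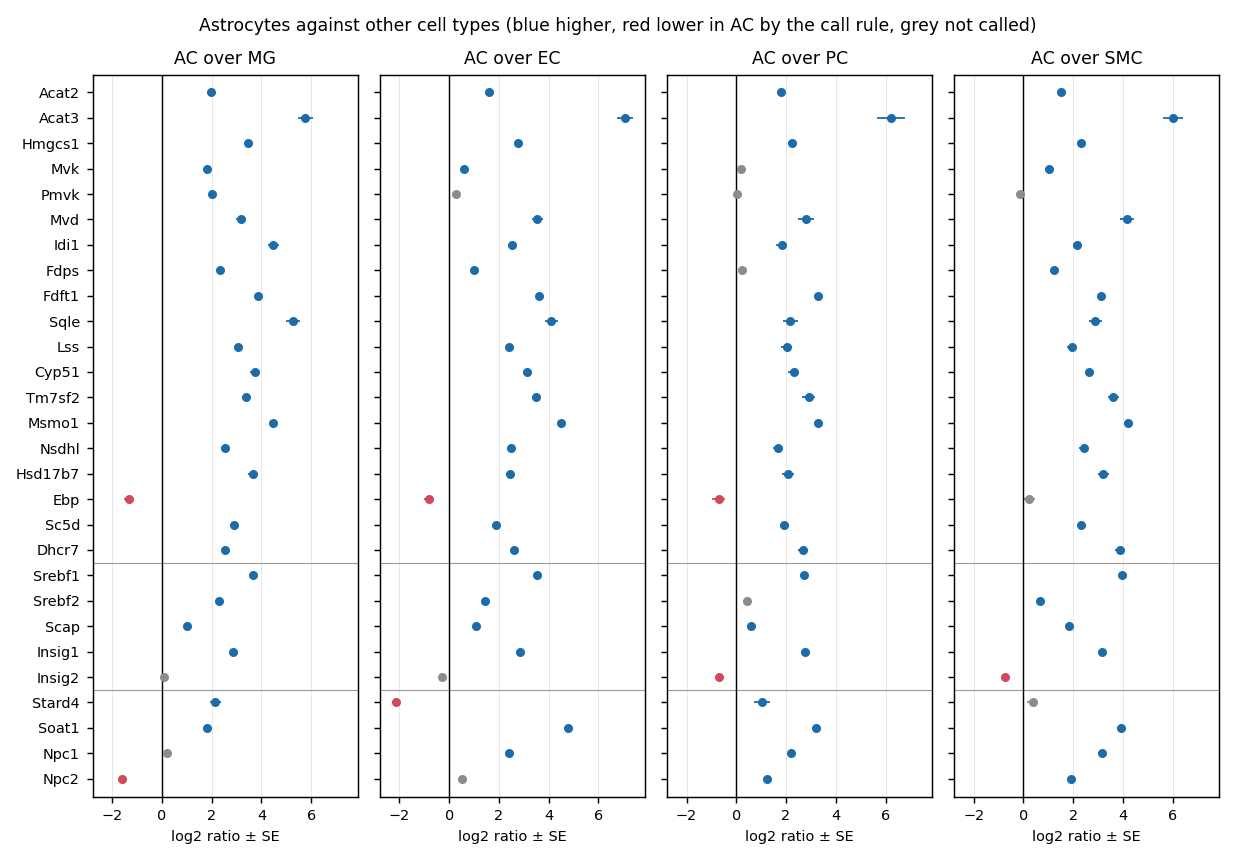
Log2 ratio of AC over MG, EC, PC and SMC for each gene from edgeR's fit, with bars for its SE over 4 libraries per type. Blue points are called higher and red points lower in AC, and grey points are not called. Acat3 over PC rests on 2 UMIs in PC.

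The 4 genes of lanosterol demethylation were higher in AC than in all 4 other types. Msmo1, the methylsterol oxidase (chromosome 8, 64718139 to 64733792, minus strand), was at 683 and 735 CPM in transgenic and wildtype midbrain AC and at 771 and 958 CPM in transgenic and wildtype frontal cortex AC. MG held 29.9 to 49.2 CPM, EC 30.3 to 38.7 CPM, PC 75.8 to 88.96 CPM and SMC 31.55 to 57.9 CPM of Msmo1. The AC values stood apart from all 16 others, with log2 ratios of 4.47 ± 0.15, 4.49 ± 0.15, 3.28 ± 0.16 and 4.21 ± 0.16 against MG, EC, PC and SMC. Cyp51, lanosterol demethylase, was at 174 and 171 CPM in transgenic and wildtype midbrain AC and at 211 and 221 CPM in transgenic and wildtype frontal cortex AC, against 11.4 to 62.2 CPM elsewhere. Nsdhl, a sterol dehydrogenase, was at 49.5 and 49.3 CPM in transgenic and wildtype midbrain AC and at 56.2 and 64.9 CPM in transgenic and wildtype frontal cortex AC, against 7.53 to 22.7 CPM elsewhere. Hsd17b7, the ketoreductase that acts beside Nsdhl, was at 45.1 and 42.8 CPM in transgenic and wildtype midbrain AC and at 53.7 and 51.0 CPM in transgenic and wildtype frontal cortex AC, against 2.74 to 15.2 CPM elsewhere. The log2 ratios of these 3 genes lay between 1.69 (Nsdhl against PC) and 3.73 (Cyp51 against MG), with no overlap of AC and the other types.

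Of the remaining enzyme genes, 3 were higher in AC than in all 4 other types. Tm7sf2, a sterol reductase, was at 29.6 and 24.1 CPM in transgenic and wildtype midbrain AC and at 33.1 and 30.5 CPM in transgenic and wildtype frontal cortex AC, against 1.64 to 5.08 CPM elsewhere (log2 ratios 2.91 to 3.62), though it overlaps Vps51 on the same strand. Sc5d, a sterol desaturase, was at 124 and 114 CPM in transgenic and wildtype midbrain AC and at 149.7 and 146 CPM in transgenic and wildtype frontal cortex AC, against 15.7 to 45.7 CPM elsewhere (1.90 to 2.89). Dhcr7, the reductase of the final double bond in one branch of the pathway, was at 64.3 and 55.0 CPM in transgenic and wildtype midbrain AC and at 62.7 and 70.9 CPM in transgenic and wildtype frontal cortex AC, against 2.87 to 13.5 CPM elsewhere (2.54 to 3.89). The values of these 3 genes did not overlap between AC and the other types, where 13.6% of all genes were called higher in all 4 comparisons.

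Ebp, the sterol isomerase (chromosome X, 8185329 to 8193512, minus strand), was the enzyme gene called lower in AC. It was at 40.1 and 42.2 CPM in transgenic and wildtype midbrain AC and at 19.3 and 18.7 CPM in transgenic and wildtype frontal cortex AC. MG held 64.3 to 79.9 CPM, EC 50.7 to 55.0 CPM, PC 40.7 to 58.5 CPM and SMC 20.1 to 28.8 CPM. The AC range lay below those of MG and EC, overlapped that of PC at its upper end and enclosed that of SMC. The log2 ratio was -1.31 ± 0.20 against MG (adjusted p = 1.75e-05), -0.82 ± 0.20 against EC (0.0015), -0.71 ± 0.26 against PC (0.026) and 0.21 ± 0.24 against SMC (0.46), by edgeR's test. The call against PC was lost under TMM scaling (-0.41), with cells thinned to 3000 UMIs (-0.52), without the wildtype frontal cortex library (-0.44) and without the transgenic frontal cortex library (-0.59, adjusted p = 0.10). The call against EC was lost among cells with few markers of other types (-0.57, adjusted p = 0.35), a shallower set with 28 to 144 EC per library.

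Srebf1, Srebf2, Scap and Insig1 were higher in AC than in MG, EC and SMC, all but Srebf2 were higher than in PC, and Insig2 was not called higher in any comparison. Srebf1, the SREBP gene known mainly for fatty acid genes (chromosome 11, 60199089 to 60222581, minus strand), was at 282 and 309 CPM in transgenic and wildtype midbrain AC and at 208 and 219.8 CPM in transgenic and wildtype frontal cortex AC, against 14.5 to 45.9 CPM elsewhere. Its values in AC stood well above those of these 4 types, with log2 ratios of 3.66 ± 0.10 against MG, 3.53 ± 0.10 against EC, 2.72 ± 0.12 against PC and 3.97 ± 0.12 against SMC. Among all deposited labels of frontal cortex, CPC held more Srebf1 than AC. It was at 222 CPM in transgenic CPC (27 cells) and at 314 CPM in wildtype CPC (73 cells). Srebf2, the SREBP gene known mainly for cholesterol genes, was at 125 and 121 CPM in transgenic and wildtype midbrain AC and at 164 and 163 CPM in transgenic and wildtype frontal cortex AC. PC held 98.5 to 116 CPM and SMC 78.0 to 103 CPM of Srebf2, below AC but near it, so its log2 ratio was 2.29 ± 0.12 against MG and 1.43 ± 0.12 against EC, but 0.43 ± 0.13 against PC and 0.68 ± 0.12 against SMC. The size rule decided these last 2 calls: under TMM scaling Srebf2 was called against PC (0.73) and fell just under the rule against SMC (0.58), where the call was also lost without the wildtype frontal cortex library (0.54).

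Insig1, an SREBP target whose protein holds SCAP back, was at 232 and 195 CPM in transgenic and wildtype midbrain AC and at 223 and 226 CPM in transgenic and wildtype frontal cortex AC. The other types held 21.0 to 43.7 CPM of Insig1, all below AC, and its log2 ratios were 2.77 to 3.14. Insig2, its relative, was at 44.2 to 51.4 CPM in AC, 44.0 to 46.9 CPM in MG, 55.5 to 61.3 CPM in EC, 70.6 to 80.1 CPM in PC and 76.8 to 83.1 CPM in SMC. It was called lower in AC than in PC (-0.68 ± 0.08) and SMC (-0.75 ± 0.07), and not called against EC (-0.29) or MG (0.07), with the call against PC under the size rule in TMM scaling (-0.38). Scap, the escort of SREBP, was at 42.5 and 44.4 CPM in transgenic and wildtype midbrain AC and at 41.5 and 36.7 CPM in transgenic and wildtype frontal cortex AC, against 10.2 to 31.2 CPM elsewhere. Its log2 ratios were 1.81 against SMC, 1.07 against EC, 0.99 against MG and 0.59 against PC, the last of which fell under the size rule without the transgenic midbrain library (0.43).

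Among the transport and storage genes, each had its own order of cell types. Soat1, which esterifies cholesterol for storage (chromosome 1, 156424525 to 156474331, minus strand), was at 328 and 342 CPM in transgenic and wildtype midbrain AC and at 269 and 328 CPM in transgenic and wildtype frontal cortex AC. MG held 87.9 to 95.3 CPM and the 3 vascular types 9.51 to 38.6 CPM of Soat1, with no overlap. Its log2 ratio was 1.80 ± 0.11 against MG, 4.77 ± 0.13 against EC, 3.20 ± 0.15 against PC and 3.92 ± 0.14 against SMC. Npc1, the membrane protein that exports cholesterol from lysosomes (chromosome 18, 12189692 to 12236400, minus strand), was at 113 and 116 CPM in transgenic and wildtype midbrain AC and at 175 and 175 CPM in transgenic and wildtype frontal cortex AC. It overlapped MG, which held 113 to 146 CPM (0.18 ± 0.11, adjusted p = 0.12), and was higher in AC than in EC (2.39), PC (2.21) and SMC (3.14).

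Npc2 and Stard4 changed sign with the type compared. Npc2, the soluble partner of NPC1 in lysosomes, was at 211 and 224 CPM in transgenic and wildtype midbrain AC and at 229.6 and 212 CPM in transgenic and wildtype frontal cortex AC. MG held 669 and 640.0 CPM in transgenic and wildtype midbrain and 720.0 and 647 CPM in transgenic and wildtype frontal cortex. The AC values were all below those of MG (-1.61 ± 0.07) and above those of EC (0.51 ± 0.07, under the size rule), PC (1.25 ± 0.08) and SMC (1.89 ± 0.08). Stard4, a sterol transfer protein, was at 19.8 and 15.4 CPM in transgenic and wildtype midbrain AC and at 22.3 and 25.7 CPM in transgenic and wildtype frontal cortex AC. EC held 91.3 and 86.9 CPM in transgenic and wildtype midbrain and 87.7 and 93.1 CPM in transgenic and wildtype frontal cortex, all above AC (-2.13 ± 0.17, adjusted p = 1.7e-09). Stard4 was higher in AC than in MG (2.15 ± 0.21) and PC (1.04 ± 0.32), and SMC held 5.74 to 22.0 CPM, which overlaps AC (0.37 ± 0.22). The call against PC was lost without the wildtype frontal cortex library (0.85, adjusted p = 0.088).

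Genes outside the 28 were read from 2 further lists. Beside them, the shares of all genes called higher and lower were 36.2% and 28.2% against MG and 32.9% and 29.5% against EC. They were 21.7% and 28.1% against PC and 35.3% and 23.0% against SMC. Of 15 SREBP fatty acid genes, 12 were higher and 1 lower in AC than in MG, 13 and 1 against EC, 12 and 0 against PC, and 14 and 0 against SMC, with median log2 ratios of 3.48, 3.91, 2.55 and 3.29. Against MG these included Fads2, a fatty acid desaturase (5.70 ± 0.31), Me1, malic enzyme (5.25 ± 0.29), Scd1 (4.91 ± 0.23) and Scd2 (4.63 ± 0.13), which desaturate stearate, and Gpam, which starts glycerolipid synthesis (4.59 ± 0.22). Of 34 tested genes of sterol uptake, export and breakdown, 11 were higher and 9 lower in AC than in MG, 16 and 8 against EC, 11 and 9 against PC, and 21 and 6 against SMC, with median log2 ratios of -0.18, 0.29, 0.05 and 0.99. Clu, a lipid-carrying secreted protein, was higher in AC than in all 4 types (5.50 to 6.09), and so was Cyp46a1, which turns cholesterol over to a hydroxylated form (3.28 to 5.51). Abcg1, a sterol exporter, was lower in AC than in all 4 (-5.44 against MG to -1.12 against SMC), and so was Mylip, which sends lipoprotein receptors to breakdown (-5.31 against MG to -1.34 against EC).

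Between regions, astrocytes of the midbrain held more Ebp and less Npc1 than those of the frontal cortex. Of the 28 genes, 1 was called higher and 1 lower in midbrain AC, where 7.07% of 13699 genes tested were higher and 8.04% lower. Ebp was at 40.1 and 42.2 CPM in transgenic and wildtype midbrain AC, against 19.3 and 18.7 CPM in transgenic and wildtype frontal cortex AC. The regions did not overlap, and the log2 ratio was 1.11 ± 0.13 (adjusted p = 2.5e-05, edgeR's quasi-likelihood test with genotype as a block, 2 libraries per region). In the other 4 types the log2 ratio of Ebp between regions within a genotype ran from -0.31 to 0.33. Npc1 was at 113 and 116 CPM in transgenic and wildtype midbrain AC, against 175 and 175 CPM in transgenic and wildtype frontal cortex AC (-0.61 ± 0.11, adjusted p = 0.0012). With cells thinned to 3000 UMIs the ratio of Npc1 was -0.57, under the size rule. Among cells with few markers of other types, which were shallower, the ratio was -0.33 (adjusted p = 0.48).

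Most enzyme genes were lower in midbrain AC by less than the size rule. In both genotypes 18 of the 28 genes, and 14 of the 19 enzyme genes, were lower in midbrain AC, against 36.8% of 7542 genes at 20 CPM. The 5 genes higher in both genotypes were Ebp, Mvk, Srebf1, Scap and Soat1, against 37.0% of genes. An adjusted p under 0.05 with a log2 ratio under the size rule was found for Hmgcs1 (-0.56 ± 0.12, adjusted p = 0.0033), Idi1 (-0.53 ± 0.11, 0.0038), Sqle (-0.50 ± 0.11, 0.0049), Srebf2 (-0.41 ± 0.11, 0.016), Pmvk (-0.42 ± 0.12, 0.021) and, in the other direction, Srebf1 (0.46 ± 0.11, 0.0095). The summed level of the 19 enzyme genes was 2146 and 2098 CPM in transgenic and wildtype midbrain AC, against 2531 and 2761 CPM in transgenic and wildtype frontal cortex AC. The summed choroid plexus markers given above moved with region in AC. The 8 oligodendrocyte markers summed to 286 and 279 CPM in transgenic and wildtype midbrain AC and to 146 and 120.1 CPM in transgenic and wildtype frontal cortex AC. The 5 fibroblast markers summed to 69.0 and 60.1 CPM in transgenic and wildtype midbrain AC and to 30.9 and 30.5 CPM in transgenic and wildtype frontal cortex AC. Their part in the region differences, that of Ebp included, was not tested. Over all 13699 genes tested, 7.07% were higher and 8.04% lower in midbrain AC, so the counts of the 2 further lists are a description. Of 33 tested genes of sterol uptake, export and breakdown, 1 was higher and 3 were lower in midbrain AC. The higher gene was Cyp27a1, a sterol hydroxylase (1.63 ± 0.19), and the lower genes were Cyp46a1 (-1.0 ± 0.14), Vldlr, a lipoprotein receptor (-0.71 ± 0.15), and Clu (-0.66 ± 0.17). Of the 15 fatty acid genes, 2 were higher, Acacb, an acetyl-CoA carboxylase (0.99 ± 0.23), and Scd1 (0.86 ± 0.12), and 0 were lower.

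**Figure D3:**
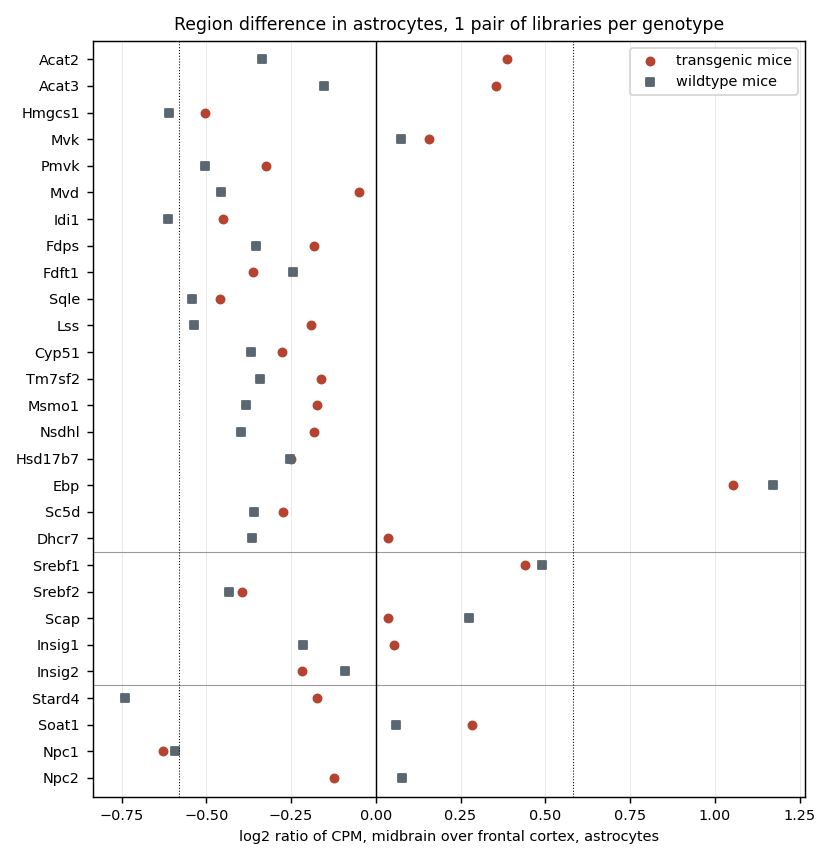
Log2 ratio of midbrain over frontal cortex AC levels for each gene, 1 point for the transgenic and 1 for the wildtype pair of libraries, with dotted lines at 0.58 in either direction. Ebp lies at 1.05 and 1.17, apart from the rest, and most enzyme genes lie left of 0.

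Between genotypes, no gene of the 28 differed by 1.5 times in AC of either region. This comparison has 1 library per group and no test. Of the 27 genes at 20 CPM in frontal cortex AC, 0 were past 1.5 times in either direction, against 3.69% of 7120 genes higher and 3.05% lower. Of the 27 in midbrain AC, 0 were past it, against 0.834% of 7073 genes higher and 0.608% lower. Intervals below are exact 95% intervals of the ratio, for counting error only.

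In frontal cortex, the 5 lowest ratios were those of Acat3, Acat2, Mvd, Msmo1 and Soat1. Acat3 was at 31.9 CPM in transgenic and 45.0 CPM in wildtype AC (log2 ratio -0.49, -0.74 to -0.25), Acat2 at 32.1 and 43.9 CPM (-0.45, -0.70 to -0.21) and Mvd at 47.7 and 63.3 CPM (-0.41, -0.61 to -0.21). Msmo1 was at 771 CPM in transgenic and 958 CPM in wildtype AC (-0.31, -0.36 to -0.26), and Soat1 at 269 and 328 CPM (-0.28, -0.37 to -0.20). The genotypes differed in cluster make-up: cluster 4 held 309 of 868 transgenic and 205 of 1067 wildtype AC, and cluster 11 held 116 and 34. Within cluster 1, with 390 transgenic and 781 wildtype cells, the log2 ratio was -0.34 for Acat3, -0.42 for Acat2, -0.29 for Mvd, -0.22 for Msmo1 and -0.12 for Soat1. All 5 counting intervals within cluster 1 lay below 0. The 5 genes were picked by their ratios over all AC of frontal cortex, and the clusters are parts of that pool. Cluster 1 held 3734544 of its 6981229 transgenic and 7072251 of its 8495103 wildtype UMIs. Values within clusters are therefore not a separate test of these genes. In cluster 4 the interval lay below 0 for Msmo1 (-0.45, -0.69 to -0.22) and Soat1 (-0.39, -0.75 to -0.01) and spanned 0 for Acat2, Acat3 and Mvd. In cluster 11 it lay below 0 for Soat1 (-0.29, -0.56 to -0.01) and spanned 0 for Acat2, Acat3, Mvd and Msmo1. The part of cluster make-up in the genotype differences was not tested beyond these values. In transgenic AC, Msmo1 was at 876 CPM in cluster 1 and 392 CPM in cluster 4, and Soat1 at 313 and 161 CPM. Hmgcs1, Idi1, Fdft1, Sqle, Srebf2, Insig1 and Npc1 had log2 ratios between -0.07 and 0.10, with intervals that include 0. The enzyme sum was 2531 CPM in transgenic and 2761 CPM in wildtype AC (-0.13, -0.15 to -0.10), and without Msmo1 it was 1759.7 and 1803 CPM. The transgenic library had a median of 9.68% mitochondrial UMIs per astrocyte and 314 CPM of summed erythroid markers in AC, and the wildtype library 5.27% and 20.1 CPM. The part of these in the genotype differences was not tested.

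In midbrain, the 4 highest ratios at 20 CPM were those of Tm7sf2, Fdps, Acat2 and Insig1. Tm7sf2 was at 29.6 CPM in transgenic and 24.1 CPM in wildtype AC (log2 ratio 0.30, 0.09 to 0.51), Fdps at 72.0 and 59.5 CPM (0.28, 0.14 to 0.41), Acat2 at 41.9 and 34.8 CPM (0.27, 0.09 to 0.45) and Insig1 at 232 and 195 CPM (0.25, 0.18 to 0.33). Stard4, under 20 CPM, was at 19.8 and 15.4 CPM (0.37, 0.10 to 0.63). Msmo1 was at 683 CPM in transgenic and 735 CPM in wildtype AC (-0.11, -0.15 to -0.06), below 0 as in frontal cortex. The enzyme sum was 2146 CPM in transgenic and 2098 CPM in wildtype AC (0.03, 0.01 to 0.06). The summed erythroid markers were 261 CPM in transgenic and 47.0 CPM in wildtype midbrain AC.

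**Figure D4:**
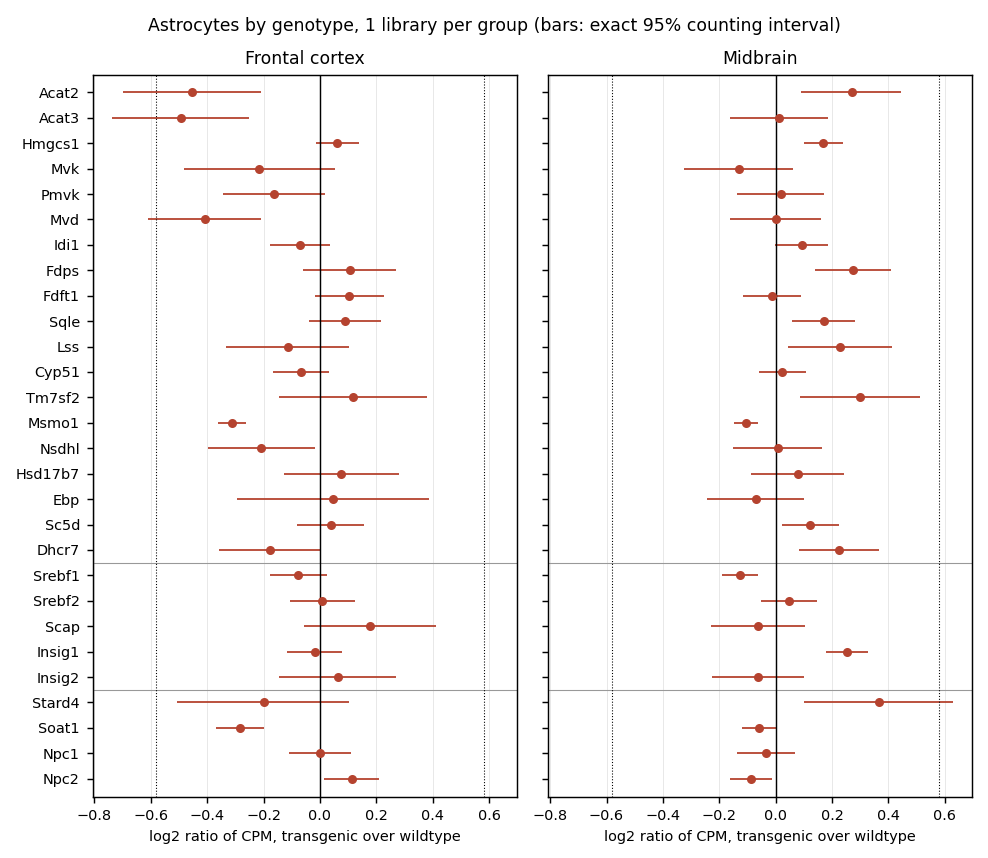
Log2 ratio of transgenic over wildtype AC levels for each gene in frontal cortex and midbrain, 1 library per group, with bars for the exact 95% counting interval and dotted lines at 0.58 in either direction. All points lie within the dotted lines, with Acat2, Acat3 and Mvd lowest in frontal cortex.

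The enzyme sum differed among the deposited astrocyte clusters, which are numbered separately in each region. In frontal cortex, the sum was 2729 CPM in transgenic and 2832 CPM in wildtype AC of cluster 1, 2563 and 2881 CPM in cluster 11, 2029 and 2314 CPM in cluster 4, and 1670.0 and 1809.6 CPM in cluster 22. In midbrain, it was 2347 and 2357 CPM in transgenic and wildtype AC of cluster 1, 2142 and 2210.3 CPM in cluster 3, 2197 and 2045 CPM in cluster 10, and 1775 and 1731 CPM in cluster 5. The shallowest clusters, midbrain 4 and 22, had median UMIs per cell of 1312 to 1423 and sums of 1538 to 1944 CPM. Frontal cortex cluster 4, at 1819 to 2286 median UMIs per cell, was shallow as well. Cluster 22 of frontal cortex and cluster 5 of midbrain, which had low enzyme sums, had the highest Srebf1 of their region, at 312 and 278 CPM in transgenic and wildtype cluster 22 and at 322 and 349 CPM in transgenic and wildtype cluster 5. The clusters were drawn from these genes among others, so these values are a description.

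Msmo1 accounted for 30.5% to 35.0% of the enzyme UMIs of a library, which is its weight in the enzyme sum and not a comparison of gene levels. Msmo1 varied with cluster as well. It was at 876 CPM in transgenic and 1023 CPM in wildtype AC of frontal cortex cluster 1, and at 392 and 537 CPM in cluster 4. It was at 789 CPM in transgenic and 911 CPM in wildtype AC of midbrain cluster 1, and at 501 and 494 CPM in cluster 5. Ebp was at 17.4 and 17.8 CPM in transgenic and wildtype AC of frontal cortex cluster 1, and at 45.6 and 49.5 CPM in midbrain cluster 1. Midbrain cluster 10 had the lowest Ebp of the deeper midbrain clusters, at 28.3 CPM in transgenic and 25.0 CPM in wildtype AC. Frontal cortex clusters 11 and 22 varied by library, at 18.0 CPM in transgenic and 34.6 CPM in wildtype AC of cluster 11 and at 48.1 and 17.0 CPM in cluster 22, on 6 to 35 UMIs each.

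**Figure D5:**
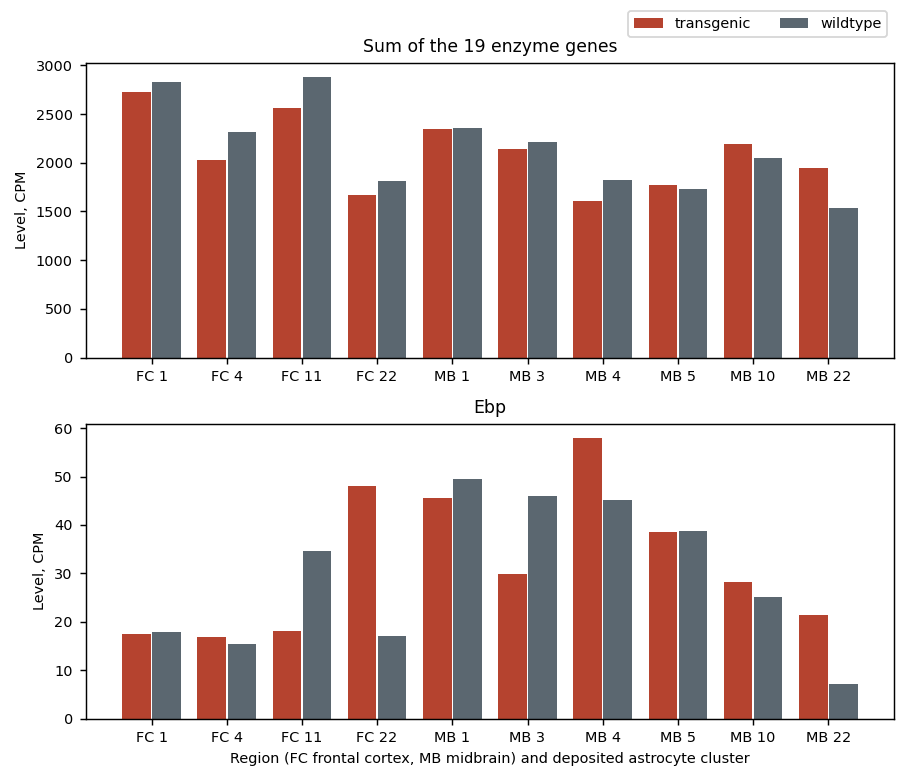
Level in CPM of the summed 19 enzyme genes (top) and of Ebp (bottom) in each deposited astrocyte cluster, with transgenic left of wildtype, 1 library per bar and no error bars. The enzyme sum is lowest in frontal cortex cluster 22 among frontal cortex clusters, and Ebp is at 25.0 to 57.97 CPM in midbrain clusters 1, 3, 4, 5 and 10 and at 15.3 to 17.8 CPM in frontal cortex clusters 1 and 4.

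Among all deposited labels with at least 20 cells, AC had the highest enzyme sum in each of the 4 libraries. OLG (12 cells) and imNeur (13 cells) fell under this limit in transgenic midbrain. OLG held 27 to 54 cells in the remaining libraries. The next label was TNC in transgenic midbrain (774 CPM, 25 cells), imNeur in wildtype midbrain (978 CPM, 71 cells), and CPC in transgenic and wildtype frontal cortex (1359.6 CPM, 27 cells, and 1494 CPM, 73 cells). MG had the lowest sum in wildtype frontal cortex (258 CPM) and in wildtype midbrain (302 CPM), and MNC the lowest in transgenic frontal cortex (279 CPM) and transgenic midbrain (247 CPM). AC was the label with the highest level for 21 and 15 of the 28 genes in transgenic and wildtype midbrain, and for 17 and 19 in transgenic and wildtype frontal cortex. Some genes called higher in AC than in MG, EC, PC and SMC were higher still in another label. In transgenic frontal cortex, Acat2 was at 86.4 CPM in imNeur and 32.1 in AC, and Scap at 65.7 in OLG and 41.5 in AC. In wildtype midbrain, Sqle was at 96.2 CPM in EPC and 88.4 in AC, and Hsd17b7 at 45.7 in imNeur and 42.8 in AC. Srebf1 in CPC is given above. The labels other than the 5 compared above hold few cells in most libraries and were not tested. Their names are the authors' and were not checked with markers here.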

How the data were processed

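Per the submitters' processing notes, the authors used Cell Ranger 3.0.0, Seurat 3.1.5 and the mm10 genome, and they deposited unscaled UMI counts per gene and cell with a cell type label, a cluster number and a mitochondrial percent for each cell, as the deposited tables hold them. Whether doublets were removed is not given in the sources used here, and none were removed further. The matrices hold 19602 genes in frontal cortex and 19956 in midbrain.

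Counts were summed per library and label (at least 20 cells) and scaled by total UMIs. Cell types were compared with edgeR 4.0.16 (R 4.3.3), quasi-likelihood test, in a fit of 5 types by 4 libraries with library as a block and 12 residual degrees of freedom. Regions were compared over the 4 astrocyte sums with genotype as a block and 1 residual degree of freedom. Genotypes have 1 library each and no test. Fits were also run on counts simulated with the same spread for all genes and no library or animal effects. That setting is simpler than these data, so it does not show the error rate here. Gene positions come from GENCODE vM21 (GRCm38) and promoters from RefSeq (GRCm38.p6), with 22 of 28 genes matched.

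Values in every library are given for genes called in at least 3 of 4 cell type comparisons in the same direction, called between regions, past 1.5 times between genotypes, or called in both directions. The genes and lists were chosen with earlier results of these data known. Alternatives were TMM and RLE factors, totals without mitochondrial and ribosomal genes, DESeq2 1.42.0, no filter, no block, cells with 500 genes or more and under 10% mitochondrial UMIs, cells with under 4 UMIs of other types' markers, cells thinned to 3000 UMIs, and each library left out. For genotypes they also included the mean of per-cell CPM and clusters weighted alike. UMI counts limit precision, and intervals cover counting error only.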

Additional observations from a re-analysis of the deposited data

Results flagged for a closer look

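Acat2 and Npc2 were the 2 genes of the 28 whose genotype ratio in astrocytes went in opposite directions in the 2 regions with both counting intervals clear of 0. For Acat2, the log2 ratio of transgenic over wildtype was -0.45 in frontal cortex and 0.27 in midbrain. For Npc2, it was 0.11 in frontal cortex and -0.087 in midbrain. The difference between regions was not tested, since each group is 1 library. The Acat2 values carry the uncertainty in the split of reads with Acat3, whose ratio was -0.49 in frontal cortex and 0.01 in midbrain.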

How the results depend on the processing

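No direction of a called cell type or region difference reversed under any alternative run. The count of genes lower in AC than in PC, 2, became 0 under TMM, RLE and DESeq2 scaling and 1 with thinned cells, and ranged from 1 to 2 when 1 library was left out. The count lower than in EC, 2, became 1 among cells with few markers of other types, where 108 to 462 astrocytes per library were left and too few PC and SMC for those comparisons. The marker limit was not scaled to depth, so it kept shallow cells. The astrocytes left had median UMIs per cell of 1737.5 to 2925.5 by library, against 6320.0 to 7983 in all AC. Among the same cells, genes lower in midbrain AC became 2, with Hmgcs1 (-0.85) and Idi1 (-0.76) called and Npc1 not, and with thinned cells they became 0. Genotype counts past 1.5 times, 0 in the main results, became 1 higher and 7 lower in frontal cortex among cells with few markers, 2 lower with thinned cells, 1 lower by the mean of per-cell CPM and 1 lower with clusters weighted alike. In midbrain, 1 gene was higher under each of few markers, thinned cells and clusters weighted alike. Over all genes, DESeq2 called 548 higher and 649 lower between regions, against 969 and 1101 with edgeR. Leaving out a library between regions leaves 1 pair and gives a value with no test, 1.05 to 1.17 for Ebp and -0.63 to -0.59 for Npc1. No paired analysis was possible by replicate number because each group has 1 library; without the library or genotype block, every count of genes stayed within 1.5 times. The cause of these changes was not tested.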
